A study of Mus musculus with 9 samples.

Results

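Matrix metalloproteinases are zinc-dependent proteases that cut the extracellular matrix, growth factor precursors and cytokines. The genes described here are 9 of them, Mmp2, Mmp3, Mmp7, Mmp8, Mmp9, Mmp10, Mmp12, Mmp13 and Mmp14, with the inhibitor gene Timp1. They were chosen by name, and every probe whose RefSeq accession maps to one of these 10 symbols was used, which gave 13 of the 41174 probes on the array. Mmp9, Mmp14 and Timp1 had 2 probes each, and the other 7 genes had 1. In all, 9 of the 10 genes had a probe that passed the filter on dim spots and were among the 21964 features tested, while Mmp8 was well above background on 1 array only and was not tested. RNA from colon mucosa labelled as normal was measured on 9 single-colour arrays, and the mice were of the outbred ICR stock. All mice, those of the DMH group included, received the colon carcinogen 1,2-dimethylhydrazine (DMH) under the skin at 20 mg/kg each week for 20 weeks. The 3 groups of 3 arrays were mice with tumors that drank water with 1.5% butyrate, mice without tumors that drank the same water, and mice given DMH alone, whose titles state no tumor status. Butyrate is a short-chain fatty acid that colon epithelium burns as fuel and that inhibits histone deacetylases. The tumor status used is that of the sample titles. A separate tumor status field of the labels states the opposite for every butyrate sample. Should that field be the correct one, the differences between butyrate groups reverse and their comparisons with DMH change places. Whether samples of a group are separate animals is not stated in the labels, so the p-values rest on spread between samples that may be technical.

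These enzymes are made as inactive precursors that other proteases or the tissue's own activators open, and tissue inhibitors such as Timp1 then block the open active site. Collagenases (Mmp8, Mmp13) cut fibrillar collagen, stromelysins (Mmp3, Mmp10) cut proteoglycans and activate other precursors, matrilysin (Mmp7) comes from epithelium, and gelatinases (Mmp2, Mmp9) cut basement membrane collagen. In the intestine they are known from ulcer repair, inflammation and tumor growth, with sources that include fibroblasts, macrophages, neutrophils and epithelial cells. Mmp7, which in mouse Paneth cells processes antimicrobial alpha-defensins, is also a known target of Wnt signalling in intestinal tumors.

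Of the 10 genes, 6 lie together in a gene cluster on chromosome 9, which RefSeq orders as Mmp13, Mmp12, Mmp1b, Mmp3, Mmp1a, Mmp10, Mmp8, Mmp27, Mmp20 and Mmp7, leaving out noncoding genes and a pseudogene. Mmp9 is on chromosome 2, Mmp2 on chromosome 8, Mmp14 on chromosome 14 and Timp1 on X. Promoter windows from RefSeq (GRCm38.p6; 250 bases before and 50 after each start site) matched 8 of the 10 genes. Stromelysin, collagenase and matrilysin promoters are textbook targets of AP-1, the Fos and Jun dimer that binds TGANTCA. Those letters stood in the windows of Mmp3, Mmp7, Mmp10, Mmp12 and Mmp13, 5 of 10 windows, since Mmp7 and Mmp12 have 2 windows each, against 7.808% of 32851 mouse promoter windows. The TATA letters TATAAA, searched on both strands as all motifs were, stood in 6 of 10 windows against 13.616%. The PEA3 letters of ETS factors, AGGAAG, stood in 8 of 10 against 35.351%, and the TCF/LEF letters CTTTGAT or CTTTGTT in 4 of 10 against 9.333%. The 2 Mmp7 windows overlap and hold the same TCF/LEF match, so these letters stood in 3 of the 8 genes. AP-1 and TATA matches shared no base in these windows, and a match is a description of the sequence, not proof of binding. The last 150 bases before the start site follow, on the plus strand, for the 4 of the 10 genes with the AP-1 letters closest to a TATA box and, as a contrast, for Mmp14. Capitals mark the AP-1 and TATA letters.
Mmp13 chr9:7272364-7272513: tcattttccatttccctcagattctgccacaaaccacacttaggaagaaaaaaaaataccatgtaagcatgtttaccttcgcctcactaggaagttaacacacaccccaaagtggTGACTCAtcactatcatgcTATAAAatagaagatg
Mmp10 chr9:7502192-7502341: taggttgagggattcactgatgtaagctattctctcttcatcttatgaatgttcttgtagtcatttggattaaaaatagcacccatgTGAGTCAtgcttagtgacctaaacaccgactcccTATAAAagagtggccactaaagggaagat
Mmp7 chr9:7691940-7692089: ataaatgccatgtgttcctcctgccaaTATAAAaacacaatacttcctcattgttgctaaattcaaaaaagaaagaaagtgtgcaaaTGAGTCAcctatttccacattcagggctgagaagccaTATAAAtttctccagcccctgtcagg
Mmp3 chr9:7445672-7445821: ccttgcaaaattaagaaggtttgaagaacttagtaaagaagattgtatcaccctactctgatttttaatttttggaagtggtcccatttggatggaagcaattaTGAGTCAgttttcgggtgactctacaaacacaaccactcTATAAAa
Mmp14 chr14:54431448-54431597: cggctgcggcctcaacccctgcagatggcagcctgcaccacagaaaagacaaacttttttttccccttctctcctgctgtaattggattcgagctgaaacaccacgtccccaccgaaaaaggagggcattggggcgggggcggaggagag
The AP-1 letters began at position -35 from the start site in Mmp13, at -46 in Mmp3 and at -63 in both Mmp10 and Mmp7. Mmp14 held neither AP-1 nor TATA letters in the stretch shown.

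Values are log2 of the processed signal minus the 75th percentile of the same array, called log2 levels below, so a level of 0 is as bright as the array's 75th percentile. Levels of different probes cannot be set against each other. The signal at the 75th percentile ran from 188 to 444 on the 4 arrays of slide 1, all of them butyrate arrays, and from 740 to 880 on the other 5, and no spot was saturated. Array 1 with tumors was the dimmest, with 57.8% of its spots well above background. The lowest signal still marked so on an array is called its floor, and values not well above background were also set to it, a step added after the values were seen. All 3 arrays without tumors and array 1 with tumors shared slide 1, arrays 2 and 3 with tumors shared slide 2, while slides 3 and 4 carried the DMH arrays, whose scan fell on a different day. Slide, scan day and treatment therefore cannot be told apart against DMH, and for the butyrate groups slide 1 alone holds both. All 12 measured colon epithelium markers were well above background on all 9 arrays. A fit tested with limma is given as log2 change ± SE, first group minus second, with p adjusted over all 21964 features and a call below 0.05. Each fit assumes 1 spread shared by its groups. The median SD of the features was 0.116 with DMH alone, 0.267 without tumors and 0.383 with tumors, so that assumption is not met.

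The contrast that the study's design names sets the 6 butyrate arrays against those of DMH alone, and it asks what butyrate changes in DMH-treated mucosa. Mmp13, Mmp10 and Mmp9 fell with butyrate, and the fitted folds of Mmp10 and Mmp9 were 14.3 and 7.38. For Mmp13, well above background on 3 of 6 butyrate arrays, the fall was 12.3-fold with the other 3 at their floor, against 18.6-fold as fitted. No gene of the 9 tested rose, and 6 did not pass. The 3 called lower stand against a background of 3.35% of all features called lower. The median log2 change of the 9 was -0.77 with dim arrays at their floor, against 0.083 over all features as fitted. In 5 of the 9 every butyrate array was below every DMH array, against 11.9% of features. The calls depended on single arrays, with 0 members called without array 2 without tumors or without any 1 of the DMH arrays, and 6 without array 3 with tumors. Leaving out array 1 with tumors, or array 1 or 3 without tumors, left 1.

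**Figure D1:**
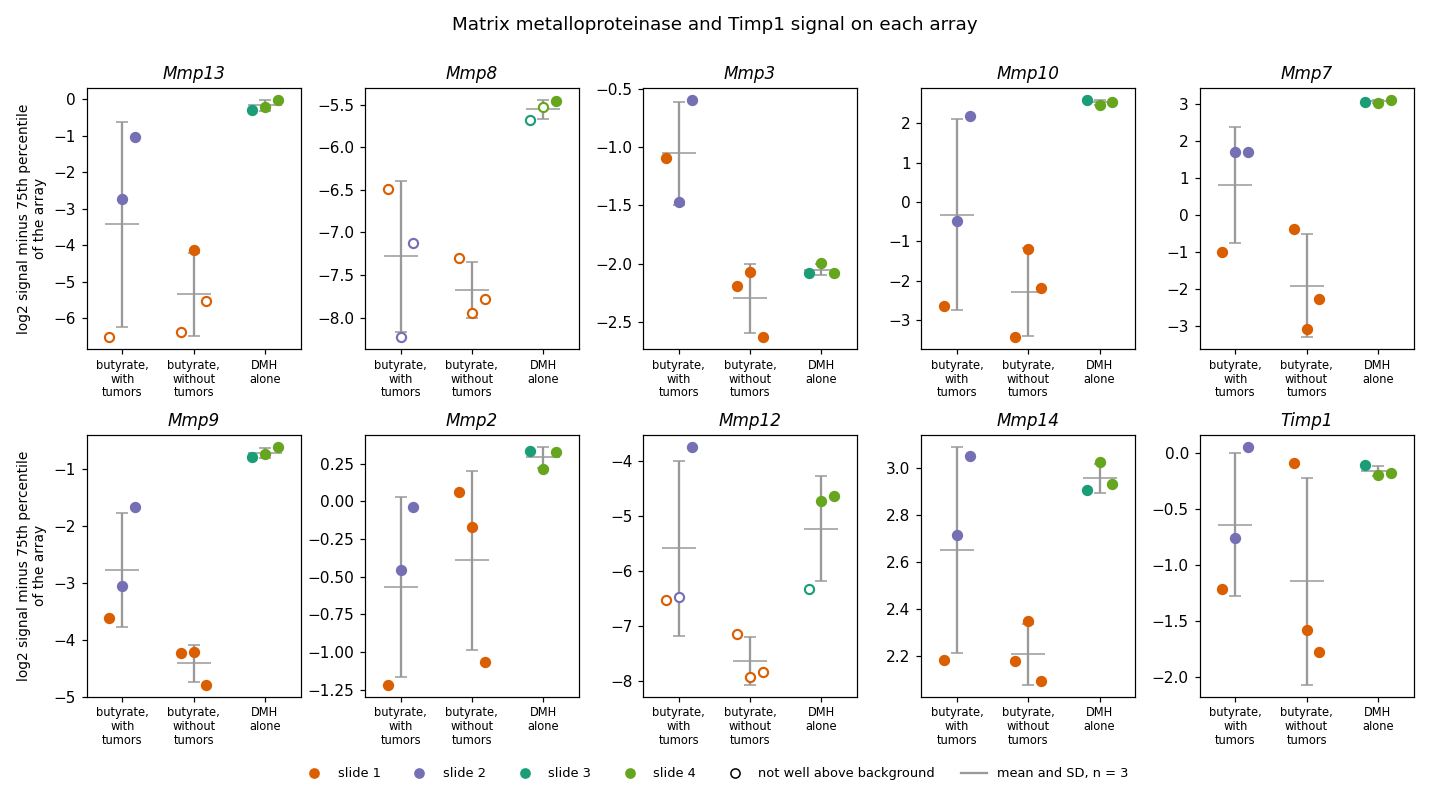
Log2 level (signal minus the array's 75th percentile) of each gene on each array, by group, with the group mean and SD (n = 3), coloured by slide; open circles are arrays not well above background, and each panel has its own axis. Mmp7, Mmp9, Mmp10 and Mmp13 were highest on the 3 DMH arrays, and Mmp3 was highest in the butyrate group with tumors.

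Among the collagenases, Mmp13 (probe A_51_P184484), which cuts fibrillar collagen in remodelling tissue, had log2 levels of -6.52, -2.72 and -1.04 with tumors, -6.38, -4.12 and -5.53 without tumors, and -0.28, -0.21 and -0.01 with DMH alone. The DMH arrays were all above the 6 butyrate arrays. Only arrays 2 and 3 with tumors and array 2 without tumors were well above background among the 6, so the order of the other 3 is not measured and the fitted changes rest in part on signal at background. The log2 change was -4.22 ± 1.13 for butyrate against DMH (adjusted p = 0.0481) and -5.18 ± 1.21 without tumors against DMH (adjusted p = 0.0163), or -3.62 and -4.73 with dim arrays at their floor. With tumors against DMH it was -3.26 ± 1.21 (adjusted p = 0.121), and with against without tumors 1.92 ± 1.21 (adjusted p = 0.286). Mmp8 (A_51_P231320), the collagenase stored in neutrophil granules, had log2 levels of -6.48, -8.23 and -7.13 with tumors, -7.30, -7.94 and -7.78 without tumors, and -5.68, -5.53 and -5.45 with DMH alone. DMH array 3 was the only array well above background, so these levels give no fold change.

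The stromelysins moved unlike each other. Mmp10 (A_51_P120830), stromelysin-2, had log2 levels of -2.64, -0.49 and 2.18 with tumors, -3.44, -1.20 and -2.20 without tumors, and 2.60, 2.48 and 2.55 with DMH alone. The groups against DMH did not overlap, although array 3 with tumors came close to the DMH arrays. Mmp10 changed by -3.84 ± 1.03 for butyrate against DMH (adjusted p = 0.0487) and by -4.82 ± 1.07 without tumors against DMH (adjusted p = 0.0136), against -2.86 ± 1.07 with tumors (adjusted p = 0.121). Mmp3 (A_51_P255699), stromelysin-1, had log2 levels of -1.09, -1.47 and -0.59 with tumors, -2.19, -2.08 and -2.63 without tumors, and -2.08, -1.995 and -2.08 with DMH alone. The arrays with tumors were above all 6 others, and those without tumors overlapped DMH. Mmp3 was 2.38-fold higher with than without tumors (1.25 ± 0.25, adjusted p = 0.0220). With tumors against DMH it did not pass (1.00 ± 0.25, adjusted p = 0.0520), and without tumors against DMH the difference was -0.25 (95% interval -0.81 to 0.32, adjusted p = 0.462).

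Matrilysin, Mmp7 (A_51_P426096), had log2 levels of -1.01, 1.71 and 1.72 with tumors, -0.37, -3.09 and -2.26 without tumors, and 3.07, 3.04 and 3.13 with DMH alone. All DMH arrays lay above all butyrate arrays, while array 1 without tumors lay above array 1 with tumors. Mmp7 was 31.7-fold lower without tumors than with DMH alone (-4.98 ± 0.85, adjusted p = 0.0057). It did not pass for all butyrate arrays against DMH (-3.63 ± 1.03, adjusted p = 0.0552), with tumors against DMH (-2.27 ± 0.85, adjusted p = 0.121), or with against without tumors (2.72 ± 0.85, adjusted p = 0.0653).

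Of the gelatinases, Mmp9, an enzyme of neutrophils and macrophages, differed in each of the 4 comparisons. Its brighter probe (A_51_P401797) had log2 levels of -3.61, -3.05 and -1.67 with tumors, -4.24, -4.21 and -4.79 without tumors, and -0.79, -0.73 and -0.61 with DMH alone. The 3 groups did not overlap, with DMH highest and the group without tumors lowest. Mmp9 fell in each comparison with DMH, with log2 changes of -2.88 ± 0.59 for butyrate (adjusted p = 0.0288), -2.06 ± 0.44 with tumors (adjusted p = 0.0402) and -3.70 ± 0.44 without tumors (adjusted p = 0.0018). With against without tumors it was 3.11-fold higher (1.64 ± 0.44, adjusted p = 0.0450). The dimmer probe (A_52_P507214) passed in the same 3 comparisons with DMH (adjusted p = 0.0254 for butyrate, 0.0397 with tumors and 0.0024 without tumors) but not between the butyrate groups (1.16 ± 0.43, adjusted p = 0.101). Mmp2 (A_51_P341736), the gelatinase of fibroblasts, had log2 levels of -1.22, -0.45 and -0.03 with tumors, 0.06, -0.17 and -1.06 without tumors, and 0.34, 0.21 and 0.33 with DMH alone. All butyrate arrays lay below all DMH arrays, but by less than the spread among them, and Mmp2 passed in no comparison (butyrate against DMH -0.77, 95% interval -1.46 to -0.08, adjusted p = 0.125). The butyrate groups overlapped.

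Mmp12 (A_51_P313674), macrophage elastase, was close to background, with log2 levels of -6.53, -6.48 and -3.75 with tumors, -7.15, -7.94 and -7.84 without tumors, and -6.33, -4.72 and -4.63 with DMH alone. Array 3 with tumors and DMH arrays 2 and 3 were the only arrays well above background, and array 3 with tumors was the highest of all 9. Without tumors against DMH the test passed (adjusted p = 0.0449). Neither the arrays without tumors nor DMH array 1 were well above background, so the fold is not measured. With the dim arrays of both groups at their floor it was 1.45-fold lower, and the groups overlapped. The call was lost in 10 of 20 alternatives.

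Mmp14, a protease anchored in the cell membrane that activates the Mmp2 precursor, had log2 levels at its brighter probe (A_51_P216303) of 2.18, 2.72 and 3.05 with tumors, 2.18, 2.35 and 2.09 without tumors, and 2.91, 3.03 and 2.93 with DMH alone. The arrays without tumors lay below all DMH arrays, and those with tumors overlapped both other groups. It fell by 0.75 ± 0.22 on the log2 scale without tumors against DMH (adjusted p = 0.0359). The dimmer probe (A_52_P304128) had -1.53, -1.23 and -0.61 with tumors, -1.55, -1.43 and -1.53 without tumors, and -0.16, -0.30 and -0.20 with DMH alone, with no overlap between butyrate and DMH. By that probe Mmp14 also fell with butyrate against DMH (-1.09 ± 0.23, adjusted p = 0.0305), where the brighter probe did not pass (-0.53 ± 0.23, adjusted p = 0.159). On the 6 butyrate arrays the changes given by these probes differed by a median of 0.544 on the log2 scale.

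Timp1, the secreted inhibitor that blocks most of these enzymes but is a weak inhibitor of Mmp14, passed in no comparison at either probe. Its brighter probe (A_52_P87713) had log2 levels of -1.21, -0.76 and 0.06 with tumors, -0.09, -1.58 and -1.77 without tumors, and -0.11, -0.19 and -0.18 with DMH alone. The highest array of each butyrate group lay at or above the DMH arrays, and the groups overlapped. At the dimmer probe, A_51_P512384, every butyrate array lay below every DMH array. The difference was -0.74 ± 0.41 for butyrate against DMH (95% interval -1.66 to 0.19, adjusted p = 0.251), and -1.12 ± 0.47 at the dimmer probe (adjusted p = 0.139). Set against Timp1 on the same array, Mmp7, Mmp9, Mmp10 and Mmp13 were further below their DMH means than Timp1 was on 6 of 6 butyrate arrays. For Mmp13 this holds with its 3 dim arrays at their floor. The count was 4 for Mmp2, 2 for Mmp14 and 1 for Mmp3.

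**Figure D2:**
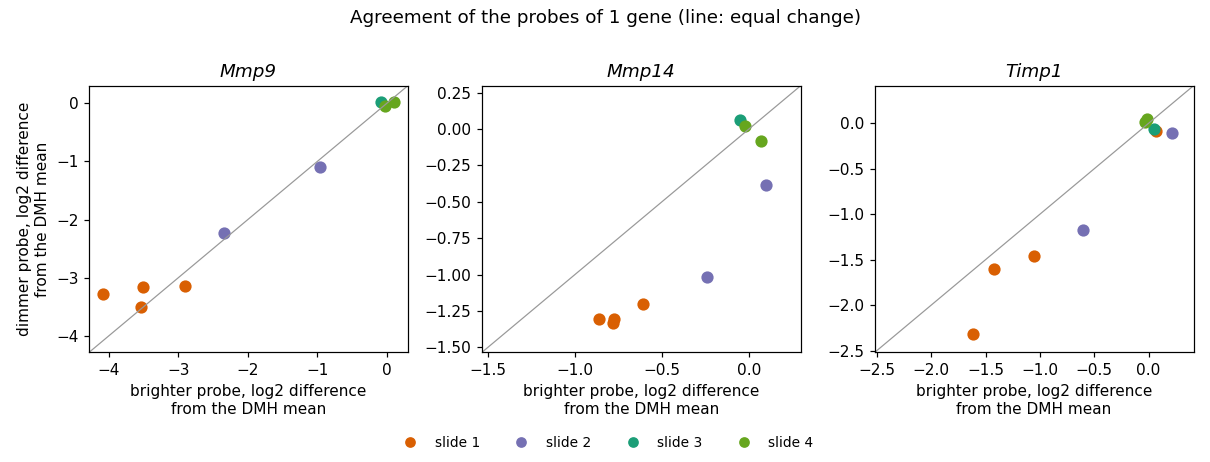
Log2 difference from the DMH mean at the dimmer probe (vertical) against the brighter probe (horizontal) of Mmp9, Mmp14 and Timp1, with a point for each array coloured by slide and a line of equal change. The largest gap between the probes on a butyrate array was 0.803 for Mmp9, 0.772 for Mmp14 and 0.702 for Timp1, and at Mmp14 every butyrate point lies below the line.

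Butyrate arrays without tumors against DMH gave the most calls. Mmp7, Mmp9, Mmp10, Mmp12, Mmp13 and Mmp14 were called lower, none higher, and Mmp2, Mmp3 and Timp1 did not pass. The 6 of 9 called lower stand against 13.8% of all features called lower. Mmp12 counts among the 6 although its signal was dim throughout the group without tumors. Its call therefore rests on signal at background, and a fall of Mmp12 is not measured. The median log2 change was -0.99 with dim arrays at their floor, against 0.076 over all features. In 7 of 9 the arrays lay wholly below DMH, against 27.2% of features, and 6 did with dim arrays at their floor, Mmp12 no longer. Without DMH array 2 or without DMH array 3 the count was 3, with Mmp12, Mmp13 and Mmp14 no longer called, and with slide as a random block it was 1, Mmp9. The titles give no tumor status for DMH, so the effects of butyrate and of tumor status cannot be told apart.

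Butyrate arrays with tumors against the same DMH arrays gave 1 call of 9, the lower Mmp9, against 2.26% of all features called lower. Mmp13, Mmp10 and Mmp7 had the most negative changes but also a wide spread, with intervals of -6.03 to -0.48, -5.30 to -0.42 and -4.20 to -0.33. The median was -0.86, against 0.084 over all features, and 6 of 9 did not overlap DMH, against 42.6% of features. Mmp9 lost its call without array 1 with tumors, without array 2 or 3 without tumors and without any 1 of the DMH arrays (0 members called in each). When another single array was left out, Mmp3 was the 1 member called, as higher (limma, adjusted p = 0.0363), so Mmp9 was not called there either. This comparison and the previous one share the DMH arrays, so their agreement is not independent.

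Between the butyrate groups, with against without tumors, Mmp3 and Mmp9 rose and none fell. The 2 of 9 called higher stand against 6.99% of all features called higher. The median log2 change was 1.25 with dim arrays at their floor, against 0.014 over all features. In 3 of 9 the arrays with tumors lay wholly above those without, against 16.8% of features, but for Mmp12 that order rests on arrays not well above background, and at the floor the count is 2, Mmp3 and Mmp9. Within slide 1, where array 1 with tumors meets the 3 arrays without tumors, Mmp3 had 1.21 (adjusted p = 0.159) and Mmp9 had 0.80 (adjusted p = 0.290), with no member called. There Mmp10 (-0.37), Mmp14 (-0.025) and Timp1 (-0.063) turned their sign, while the sign of Mmp13 is not measured there. Without array 1 with tumors 6 members were called higher, Mmp7, Mmp10, Mmp13 and Mmp14 besides the pair, without array 3 of either group 0 were, and without any other single array 1 was, Mmp3. The lone array with tumors on slide 1 is assumed to vary like those without.

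**Figure D3:**
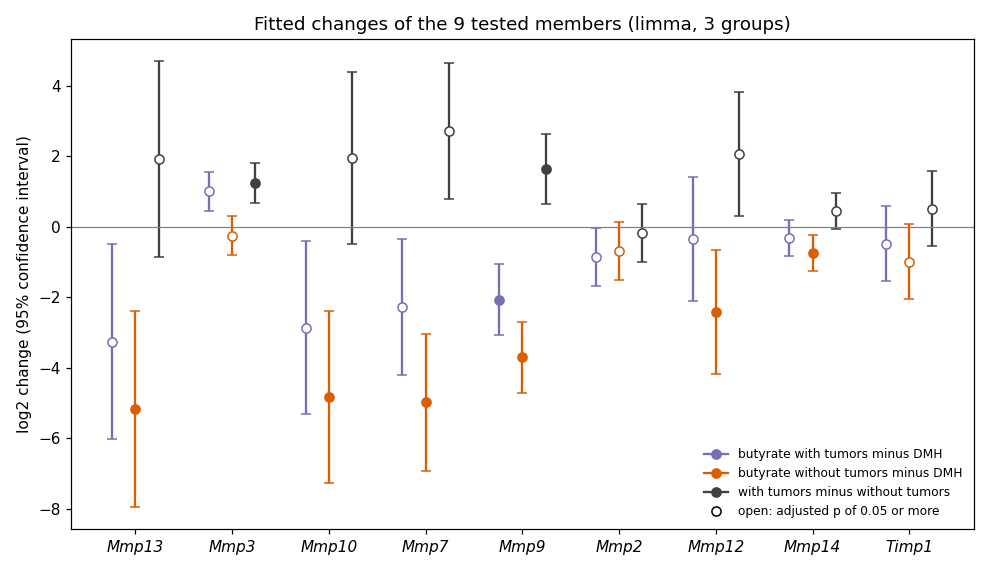
Log2 change with its 95% confidence interval for the 9 tested genes in the fit of 3 groups, with butyrate with tumors minus DMH, butyrate without tumors minus DMH, and with minus without tumors side by side; filled points have an adjusted p under 0.05. The intervals of Mmp13, Mmp10 and Mmp7 are the widest, and Mmp3 stands apart as the gene with its 2 changes involving the tumor group above 0.

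Slide went with several of these levels. On all 4 butyrate arrays of slide 1, Mmp7, Mmp9, Mmp10, Mmp13 and Mmp14 were lower than on both arrays of slide 2, 5 of 9 genes against 20.474% of features, with dim arrays at their floor. For Mmp7, Mmp9, Mmp10 and Mmp13 the DMH arrays lay above slide 2 in turn, 4 of 9 against 5.117% of features as measured. Array 1 with tumors lay with the arrays of its slide rather than with its group for Mmp7, Mmp10 and both probes of Mmp14. At the dimmer Mmp9 probe that array (-4.00) was also closer to the arrays of its slide (-4.37, -4.02 and -4.14) than to its group (-3.08 and -1.96). Mmp2, Mmp3 and Timp1 did not have slide 1 wholly below slide 2. For Mmp3, array 1 with tumors lay above array 2 of its group. The part of slide in these results was not tested beyond the fits given.

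Other genes of the pathway were tested in the same fits. Of 14 other metalloproteinase genes 12 were on the array and 9 were tested. None was called for butyrate against DMH (limma; 2 at an unadjusted p under 0.05), with tumors against DMH (2 unadjusted) or between the butyrate groups (2 unadjusted). The membrane-bound Mmp17 rose without tumors against DMH (1.18, adjusted p = 0.0479). It was 1 of 9 called there, against 6694 of all 21964 features. Among 8 other inhibitors, Reck, a membrane-anchored inhibitor of Mmp2, Mmp9 and Mmp14, was the gene that rose with butyrate (1.51 ± 0.36, adjusted p = 0.0386), and without tumors it rose by 1.83 (adjusted p = 0.0108). In the same comparison A2m, a broad protease trap (-2.05), and Serpine2, an inhibitor of serine proteases (-1.82), fell. There 5 of 8 were called, 2 higher and 3 lower, against 3656 higher and 3038 lower of all 21964 features. Between the butyrate groups A2m was higher with tumors (1.94, adjusted p = 0.0254), well above background on 2 of 3 arrays with and 1 of 3 without tumors, and Tfpi2 was lower (-1.64, adjusted p = 0.0203). These 2 of 8 called stand against 2976 of all 21964 features.

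Of 10 activators and surface partners none was called for butyrate against DMH (limma; 5 at an unadjusted p under 0.05, against 6857 of 21964 features). Without tumors against DMH Plaur, the urokinase receptor (-1.44, adjusted p = 0.0055), Ctsg, a protease of myeloid granules (-1.43), and Plat, a plasminogen activator (-1.71), fell, and Cav1 rose (1.09). These 4 of 10 called stand against 6694 of all 21964 features. With tumors against DMH the urokinase gene Plau (-1.47, adjusted p = 0.0295) and Bsg, a surface inducer of these enzymes (-1.15), fell. That is 2 of 10 called lower, against 2.26% of all features. With against without tumors Plaur (1.05) and Ctsg (1.20) were higher and Bsg (-0.92) was lower, 3 of 10 called against 2976 of all 21964 features. Of 11 ADAM and ADAMTS relatives, 2 were called without tumors against DMH, against 6694 of all 21964 features. Adam9 rose (1.01, adjusted p = 0.0058), and Adamts12 was called lower (adjusted p = 0.0166). Adamts12 was well above background on 2 of 3 DMH arrays and 0 of 3 without tumors, so its fold is not measured. Adam9 was also lower with than without tumors (-0.71), 1 of 11 called against 2976 of all 21964 features. Of 15 matrix substrates none was called for butyrate against DMH (limma; 7 at an unadjusted p under 0.05, against 6857 of 21964 features). Lamb1, a laminin chain (-2.02), and Spp1, osteopontin (-2.85), fell without tumors against DMH and Eln, elastin, rose (0.74). These 3 of 15 called stand against 6694 of all 21964 features. The laminin chain Lama5 was higher with than without tumors (1.16), 1 of 15 called against 2976 of all features.

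Genes known to induce these enzymes were lower without tumors than with DMH alone in 7 of 22, with none higher, against 13.8% of all features called lower. The cytokine gene Il1b had a log2 change of -1.81 (adjusted p = 0.0075), the ETS factor gene Etv5 -1.01 and the Wnt effector gene Lef1 -1.42. Il1a was at least 1.59-fold lower (adjusted p = 0.0022), with no array without tumors well above background. Etv5 was also the single gene of this list called for butyrate against DMH (-0.95, adjusted p = 0.0276) and with tumors against DMH (-0.88, adjusted p = 0.0467). With against without tumors 6 of 22 were higher, against 6.99% of all features, among them Lef1 (2.02), Tcf7 (2.14) and Il1b (1.73). The 6 AP-1 subunit genes on this list, Fos, Fosl1, Fosl2, Jun, Junb and Jund, were called in none of the 4 comparisons (limma). For butyrate against DMH their changes ran from -0.69 to 0.44 (0 at an unadjusted p under 0.05), and without tumors against DMH from -0.94 to 0.75 (3 unadjusted). Over all 21964 features the unadjusted counts were 6857 and 9777 in the same order.

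In bulk RNA, fewer cells of a type and less RNA per cell cannot be told apart. Neutrophil markers are given beside Mmp9. Of 9 such genes 6 were tested, with medians relative to the DMH mean of -2.04, -0.94 and 0.32 in arrays 1 to 3 with tumors, against -3.22, -3.82 and -3.71 without tumors and -0.04, -0.03 and 0.08 with DMH alone, all with dim arrays at their floor. On arrays 1 to 3 without tumors 4, 2 and 3 of the 6 genes were not well above background. Without tumors against DMH 5 of 6 fell (median -3.60 at the floor), against 13.8% of all features, among them the calprotectin gene S100a8, at least 15.1-fold lower. Cxcl5, a chemokine that epithelium also makes, is one of the 5. For butyrate against DMH 0 were called (limma; median -2.13 at the floor), and 3 had an unadjusted p under 0.05, against 6857 of 21964 features. With against without tumors 4 of 6 were higher, against 6.99% of all features. Ngp and Cxcr2 were well above background on no array. Macrophage markers, beside Mmp12, had array medians from -0.28 to 0.46 with tumors, from -0.68 to -0.40 without tumors, and within 0.02 of 0 with DMH alone. Of these, 3 of 10, led by Fcgr1 (-2.58), fell without tumors against DMH, against 13.8% of all features called lower. Fibroblast markers, beside Mmp2 and Mmp3, had medians from -0.03 to 0.19 with tumors and from -0.87 to 0.42 without tumors. Medians of the colon epithelium markers were below the DMH mean on all 6 butyrate arrays, from -1.26 to -0.53 with tumors and from -1.01 to -0.65 without tumors. Without tumors against DMH, 5 of the 12 were called lower and 1 higher, against 3038 lower and 3656 higher of all 21964 features. Medians of the smooth muscle markers were above the DMH mean, from 0.65 to 1.55 with tumors and from 0.37 to 1.55 without tumors, against -0.35 to 0.45 on the DMH arrays. The part of these cell types in the results for the metalloproteinases was not tested.

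**Figure D4:**
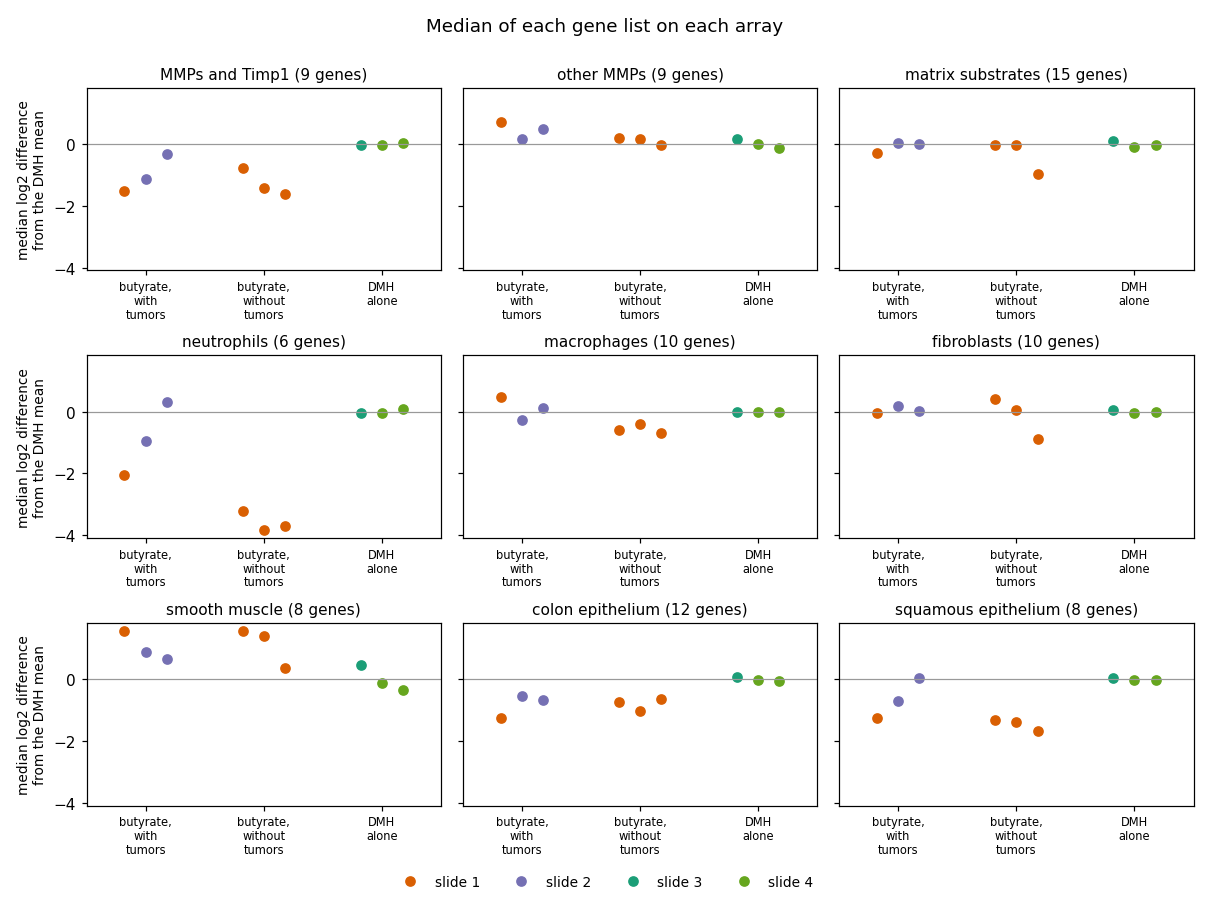
Median log2 difference from the DMH mean over the tested genes of each list, on each array by group, coloured by slide. Values not well above background were set to the array's floor. The last panel is a list chosen after the values were seen, and it holds Dsg3, which was picked for its likeness to Mmp9. The metalloproteinases and Timp1 run from -1.51 to -0.33 with tumors and from -1.62 to -0.78 without tumors, and neutrophil markers span the widest range.

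The genes with the most similar pattern over the 9 arrays were found by the root mean square difference of log2 levels, each centred on its own mean. Dim arrays enter as measured, so for Mmp12 and Mmp13 the likeness rests in part on signal at background. Mmp10 and Mmp13 were closer to each other (0.449) than to any other named gene. Among the nearest genes outside the group were Arg1 and Mcpt1 for Mmp10 (0.708 each) and Mcpt1 and Ltf for Mmp13 (0.802 and 0.876). For Mmp9 they were Cxcl3, Dsg3 and Prr9 (0.279 to 0.399), for Mmp7 Slc22a16, Krt90 and Btbd17 (0.552 to 0.818), and for Mmp12 Ccl3, Cemip and Lilra5 (0.286 to 0.584). Mmp3 lay nearest to 1700001C19Rik, Tnfrsf25 and Ifitm1 (0.138 to 0.184), and Mmp14 nearest to Sirt6, Yaf2 and Pkm (0.099 to 0.106). Genes that vary little can have a small difference from each other for that reason alone, and the own spread of Mmp14 (0.377) and Mmp3 (0.596) was the smallest of these 7.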

How the data were processed

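Total RNA of normal colonic mucosa was measured on 9 single-colour (Cy3) Agilent mouse arrays. The values used are deposited scanner intensity, which per the file headers Feature Extraction 10.5.1.1 corrected for background within each array, with no scaling between arrays. The authors' deposited value table holds log2 values of 21829 probes, each array equal to the log2 processed signal minus 1 constant (SD of the difference at most 0.0081). What that constant is stays unknown, and the column medians ran from 2.71 to 3.20. That table and the median intensity columns of spot and background, deposited by the authors, entered alternatives only.

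Control spots (1639) were left out, outlier spots set to missing, and spots of a probe averaged. Log2 signal minus the array's 75th percentile was used. Probes had to exceed background clearly, by the scanner's own mark, on 3 or more of the 9 arrays and to have 2 values in each group (28521 probes). The brightest probe per named gene was kept, and each probe without a gene name stayed as its own feature. This gave 21964 features, of which 15346 were named genes. RefSeq accessions, of which 1 annotation version was used for all arrays, named 26933 probes. limma 3.58.1 in R 4.3.3 (lmFit and eBayes, 2-sided) tested butyrate against DMH in 2 groups and the rest in 1 fit of 3 groups, with Benjamini-Hochberg adjustment. The fit was tested on simulated data. The genes, the lists and the alternatives were chosen with earlier results of these data known. Named are all 10 genes, up to 4 called genes of each list by smallest p, and the 3 most similar genes of each called member. A few genes that this rule selects are not reported here. Probe positions were not used, and promoter sequences are from RefSeq GRCm38.p6. The number of arrays limits the precision.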

Additional observations from a re-analysis of the deposited data

Results flagged for a closer look

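Mmp12 on array 3 with tumors had a log2 level of -3.75, above the other 5 butyrate arrays, which lay at -6.48 and below. The gap was 0.651 of the whole range of the 6 arrays, but those 5 were not well above background, and with them at the lowest signal that is, the gap was 0.248 of the range and would not stand out. The dimmer Mmp14 probe had -0.61 on the same array, with a gap of 0.661 of the range above the others. Chance flags about 1 in 20 such groups, and both come from array 3 with tumors, which also held the highest butyrate levels of Mmp10, Mmp13 and Mmp9.

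For Mmp3 and Mmp9 the effect against DMH differed between the butyrate groups. With minus without tumors, the difference in log2 change was 1.25 for Mmp3 and 1.64 for Mmp9 (limma, adjusted p = 0.0220 and 0.0450). Since both effects share the DMH arrays, this is the comparison of the butyrate groups itself. Within slide 1 it was 1.21 for Mmp3 and 0.80 for Mmp9, and neither passed there.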

How the results depend on the processing

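Over 4 comparisons and their alternatives, single-gene results kept direction and call in 670 of 812 cases, lost the call in 105, gained it in 21 and turned sign in 16. For butyrate against DMH, where 3 members were called, the count was 1 with quantile scaling, with the mean of all probes or without slide 1 (then Mmp7), and 0 with no scaling, the replicate block, slide as a random block, or DMH arrays 2 and 3 averaged. It ran from 0 to 6 leaving out single arrays. Without tumors against DMH (6) it was 1 with slide as a random block and 3 with DMH arrays 2 and 3 averaged, and from 3 to 6 leaving out arrays. With tumors against DMH (1) it was 2 with normexp, with the authors' values or with the filter on all 9 arrays, 0 with no scaling, no filter, the replicate block, slide as a random block, only the groups compared, or DMH arrays averaged, and from 0 to 1 leaving out arrays. With against without tumors (2) it was 1 with quantile scaling, normexp, no filter, the mean of probes, the replicate block, slide as a random block or DMH arrays averaged, 0 with no scaling, only the groups compared, slide as a fixed block or within slide 1, and from 0 to 6 leaving out arrays. The replicate block left the count without tumors against DMH at 6. Same-numbered samples correlated in their deviations from -0.0095 to 0.264, and differently numbered ones from -0.241 to 0.226. With 3 arrays a group these correlations cannot decide whether a shared number marks a pair. Signs turned for Mmp3 in butyrate against DMH with no scaling (-0.47). Mmp12 turned without slide 1 (0.12), and with tumors against DMH without array 1 (0.12) or 2 (0.09) with tumors, in a range from -1.27 to 0.12 leaving out arrays. Mmp2 with against without tumors had 0.29 with no scaling, 0.05 without array 1 without tumors and 0.15 without array 1 with tumors, in a range from -0.52 to 0.15 leaving out arrays. With slide as a fixed block or within slide 1, Mmp10 (-0.37), Mmp13 (-1.17), Mmp14 (-0.025) and Timp1 (-0.063) turned, Mmp13 from arrays mostly not well above background, so that its sign there is not measured (0.60 with such arrays at their floor). No scaling moved the median of all features by -0.76 for butyrate against DMH, -1.004 without tumors, -0.53 with tumors and 0.48 between the butyrate groups. For butyrate against DMH, 1285 features rose and 735 fell, against 1088 and 714 with quantile scaling, 830 and 943 with normexp, 469 and 728 with the authors' values, and 0 and 35 with no scaling. Without tumors against DMH the split was 3656 and 3038, against 3777 and 1851 with the authors' values and 5 and 1545 with no scaling. With tumors against DMH it was 756 and 496, against 440 and 487 with quantile scaling, 465 and 723 with normexp, 414 and 1542 with the authors' values and 1 and 34 with no scaling. Between the butyrate groups it was 1536 and 1440, against 924 and 1457 with quantile scaling, 979 and 1745 with normexp, 633 and 3749 with the authors' values and 1 and 0 with no scaling. Why these values moved was not tested beyond what fewer samples or features account for. Signal over background limits Mmp8, Mmp12 and Mmp13, none of which was well above it on more than 3 of 6 butyrate arrays.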

Other observations

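Genes of stratified squamous epithelium, a list chosen after the values were seen because Dsg3 and Krt90 had stood out among the genes most like Mmp9 and Mmp7, gave the following medians over 8 tested genes of 10, relative to the DMH mean. Dsg3 is itself on this list, so a likeness of the medians to Mmp9 is in part built in. They were -1.81, -0.70 and 0.04 in arrays 1 to 3 with tumors, and -1.91, -1.49 and -1.66 without tumors. The DMH arrays lay within 0.04 of 0. The keratin genes Krt5, Krt14, Krt13 and Krt15 were well above background on all 9 arrays, and Trp63, the transcription factor gene of squamous basal cells, on none. Of the 8 genes, 3 were not well above background on array 1 with tumors and on each array without tumors, so those medians are in part signal at background. With these at the array's lowest signal well above background, the medians were -1.26 on array 1 with tumors and from -1.66 to -1.32 without tumors. These are values with no test.

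Markers of Paneth cells, which in mouse hold Mmp7, had 4 of 7 genes tested. The alpha-defensin genes of the list, Defa5, Defa24 and Defa17, had no probe. Whether this colon mucosa held Paneth cells was not tested. Ang4, an antimicrobial protein of secretory cells, was lower than with DMH alone both with tumors (-2.99, adjusted p = 0.0026) and without tumors (-3.35, adjusted p = 4.62e-04) in limma, and Itln1, a lectin of goblet and Paneth cells, was lower without tumors (-2.83, adjusted p = 0.0242). Lyz1, the Paneth cell lysozyme, was higher with than without tumors (1.69, adjusted p = 0.0207). Against DMH 2 of 4 were called lower without tumors and 1 of 4 with tumors, against 13.8% and 2.26% of all features. Between the butyrate groups 1 of 4 was called higher, against 6.99% of all features. Of 11 Wnt target and crypt-base genes, the class to which Mmp7 belongs, 4 fell without tumors against DMH, against 13.8% of all features called lower. Among the 4 were Notum (-4.67) and Sp5 (-3.91), while the median of the list was -0.72. None was called with tumors against DMH (limma, with 1 at an unadjusted p under 0.05, against 6573 of 21964 features).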
